A study of Mus musculus with 21 samples.

Results

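The interval between day 3 and day 7 after removal of the left lung was measured in the right lung of male C57BL/6 mice. Total RNA was taken from 3 regions, the medial lobe, the cardiac lobe and the whole right lung, and 1 biotin-labelled Affymetrix array was made per region and day. The comparison therefore sets 3 arrays of day 7 against 3 arrays of day 3, chosen by their labels and paired by region, out of 21 arrays in the series. The other arrays cover the same 3 regions before surgery (day 0), at days 14, 28 and 56 after pneumonectomy, and at day 56 after sham surgery. The study asked whether post-pneumonectomy growth passes through phases of de-differentiation and renewed development. The labels give no age, and do not say how many mice contributed to an array or whether the regions of one day came from the same mice. The whole right lung may contain the medial and cardiac lobes, so the 3 steps may not be independent.

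After pneumonectomy the remaining lung enlarges and adds cells and alveolar surface. Early after surgery the tissue is known for recruited myeloid cells, dividing epithelial, endothelial and mesenchymal cells, and the deposition of new matrix. Members are ordered here by their roles in these processes, beginning with the genes that passed the test across all genes.

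Values are log2 expression values as deposited, so that a difference of 1 is a doubling of the signal. The difference of a gene is day 7 minus day 3, fitted with limma on all 21 arrays with terms for condition and region, and errors after ± are standard errors of that difference with 12 residual degrees of freedom. A step is the same subtraction within 1 region and has no error of its own. Because each region has 1 array per day, the p-values measure how far the steps differ between regions and how far the arrays scatter in the other conditions, part of which may be technical. Array medians over the genes of the 6 arrays ran from 6.93 to 7.05. Lung markers were high on all 6 arrays, with a mean level of the 16 alveolar type II genes between 11.11 and 11.98. The day 7 cardiac lobe array stood apart from the other 6 arrays of its region. Its interquartile range was 3.341, the lowest of the 7, and its mean level of 59 small nucleolar and related RNAs was 8.15 against 6.90 in the cardiac lobe at day 3. Steps over 1 were also most frequent in the cardiac lobe, with 190 genes higher and 450 lower at day 7, against 33 and 57 in the medial lobe and 23 and 197 in the whole right lung. For most lists, the median that moved furthest without a single array, the day 7 cardiac lobe or another, is given beside the list.

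Of 19938 genes, 13 passed a Benjamini-Hochberg adjusted p of 0.05 in limma, which is 0.0652% of the genes tested. 9 of them were lower at day 7 (0.0451%) and 4 were higher (0.0201%). The genes that fell were Osr1, B4galt6, Adgrd1, Abca9, Mexis, Slpi, Egfr, Pramel12 and Spry3, and the genes that rose were Hspa1a, Slc6a20a, Cracr2a and Rab3c. Their differences ran from 0.445 to 1.783 in size, and all 13 had the same sign in the 3 regions. The day 3 and day 7 arrays of 11 of the 13 did not overlap, where 11.1% of all genes showed no overlap. Each of the 9 genes that fell had its highest mean of the 7 conditions at day 3. Of the 4 that rose, Hspa1a had its highest mean at day 7, and Slc6a20a, Cracr2a and Rab3c had their lowest mean at day 3. The shared signs, the lack of overlap and these extremes come from the arrays by which the 13 were called. The choice of genes favours them, so they are no separate evidence. The count depended on single arrays: it was 0 without the day 3 whole right lung array (938 genes at an unadjusted p under 0.05), 4 without the day 3 cardiac lobe array, 6 without the day 7 medial lobe array, 45 without the day 7 cardiac lobe array and 102 without the day 3 medial lobe array. Osr1 and B4galt6 passed with any 1 of the 6 arrays left out except the day 3 whole right lung. Adgrd1, Cracr2a and Slpi passed without the day 3 medial lobe, the day 7 cardiac lobe or the day 7 whole right lung array, and missed without any 1 of the other arrays. Abca9, Egfr, Mexis and Slc6a20a passed only without the day 3 medial lobe or the day 7 cardiac lobe array, Hspa1a only without the day 3 medial lobe or the day 7 whole right lung array, and Rab3c only without either cardiac lobe array. Pramel12 and Spry3 passed only without the day 3 medial lobe array. The count was also 0 with the region left out of the model (1182 genes at an unadjusted p under 0.05), and after subtraction of the median of each array 5 genes were called higher and 7 lower.

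Osr1, a zinc finger transcription factor of embryonic mesenchyme that marks progenitors of fibroblasts, showed the largest fall among the genes that passed. At day 3 it read 9.57 in the medial lobe, 10.09 in the cardiac lobe and 10.21 in the whole right lung. At day 7 it read 7.86, 9.31 and 8.39 in the same order. Every day 7 array lay below every day 3 array, and the cardiac lobe kept the highest level at day 7. Osr1 fell by 1.44 ± 0.19 on the log2 scale, so that its level was 2.71 times higher at day 3 than at day 7 (limma adjusted p = 0.00955). The step was -1.71 in the medial lobe, -0.78 in the cardiac lobe and -1.82 in the whole right lung. Its mean was 8.17 at day 0, 9.96 at day 3, 8.52 at day 7 and 8.26 at day 14. Osr1 had risen by 1.79 ± 0.19 from day 0 to day 3 (adjusted p = 3.9e-05), and day 7 was 0.35 ± 0.19 above day 0 (adjusted p = 0.214). Both of these share arrays with the step from day 3 to day 7. Osr1 passed under 15 of 20 alternative analyses, with differences from -1.75 to -1.25.

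B4galt6, a galactosyltransferase that makes lactosylceramide from glucosylceramide, followed a like course. It read 8.10, 8.44 and 8.96 in the medial lobe, cardiac lobe and whole right lung at day 3 and 6.88, 7.51 and 7.73 at day 7. The 3 steps were close in size, at -1.22, -0.92 and -1.23, and the arrays of both days did not overlap. B4galt6 fell by 1.13 ± 0.14 (adjusted p = 0.00955), a level 2.18 times higher at day 3, and passed under 17 of 20 alternatives, more than any other of the 13. Its mean at day 7, 7.37, was 0.39 ± 0.14 above day 0 (adjusted p = 0.0977). It was the only one of 9 measured glycosphingolipid synthesis genes that passed, and the median difference of the 9 was -0.04.

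Adgrd1, an adhesion G protein-coupled receptor, read 10.41, 10.80 and 10.82 at day 3 and 9.79, 9.78 and 10.02 at day 7. All 3 regions at day 7 lay below all 3 at day 3. It fell by 0.82 ± 0.12 (adjusted p = 0.0197), and its descent was not complete at day 7. It still lay 0.87 ± 0.12 above day 0 (adjusted p = 0.00101), and it fell by a further 0.55 ± 0.12 from day 7 to day 14 (adjusted p = 0.0492). Slpi encodes a secreted inhibitor of neutrophil elastase made by airway epithelium and macrophages. It read 9.88, 10.15 and 10.67 at day 3 and 9.29, 9.43 and 9.88 at day 7, so that the highest day 7 array, the whole right lung, lay just under the lowest day 3 array. Slpi fell by 0.70 ± 0.10 (adjusted p = 0.0197), with steps of -0.60, -0.72 and -0.79, and day 7 was still 0.56 ± 0.10 above day 0 (adjusted p = 0.00518).

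Egfr, the receptor for epidermal growth factor and its relatives, was nearly level across regions at day 3, at 8.80, 8.81 and 8.84. At day 7 it read 8.07 in the medial lobe, 8.30 in the cardiac lobe and 8.02 in the whole right lung, below every day 3 array. Egfr fell by 0.69 ± 0.11 (adjusted p = 0.036), and day 7 differed from day 0 by -0.01 ± 0.11 (adjusted p = 0.953). None of the other 10 genes of its list, which holds the ligands of Egfr, its sister receptors and the HGF pathway, passed or had an unadjusted p under 0.05. The ligands Tgfa and Ereg had differences of 0.12 ± 0.09 and 0.18 ± 0.11, and the receptor Erbb3 of 0.17 ± 0.13. Spry3, of the Sprouty family that dampens signalling from receptor tyrosine kinases, fell by 0.53 ± 0.09 (adjusted p = 0.0444) from 4.56, 4.78 and 5.12 to 4.30, 4.25 and 4.32. These values are near the dim end of the table, where the lowest value is 2.98, and the deposited table carries no detection call.

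Abca9, a lipid transporter of the ATP-binding cassette A family, read 7.45, 7.71 and 8.10 at day 3 and 6.58, 7.19 and 7.05 at day 7. It fell by 0.82 ± 0.13 (adjusted p = 0.028), and the cardiac lobe had the smallest step, -0.52. Mexis, a long noncoding RNA of macrophages known for amplifying the transcription of the cholesterol exporter Abca1, read 6.27, 6.73 and 6.73 at day 3 and 5.53, 6.04 and 5.78 at day 7. It fell by 0.79 ± 0.12 (adjusted p = 0.0197) with no overlap between the days. Abca1 itself did not pass, at -0.54 ± 0.18 (adjusted p = 0.322), with steps of -0.75, -0.03 and -0.84. Of 12 ABCA transporters measured, Abca9 alone passed, and the median of the 12 was -0.02. Abca4, the retinal lipid transporter, and Abca3, the lipid transporter of lamellar bodies, lay on opposite sides of 0, at -0.33 ± 0.09 and 0.24 ± 0.11, and neither passed (adjusted p = 0.21 and 0.472). Pramel12, of the PRAME-like family, fell by 0.54 ± 0.09 (adjusted p = 0.0444) from 6.74, 6.96 and 6.98 to 6.40, 6.24 and 6.43. It differed from the other genes that fell in its day 7 mean, 6.36, which was its lowest of the 7 conditions and gave a difference from day 0 of -0.49 ± 0.09 (adjusted p = 0.00652).

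**Figure D1:**
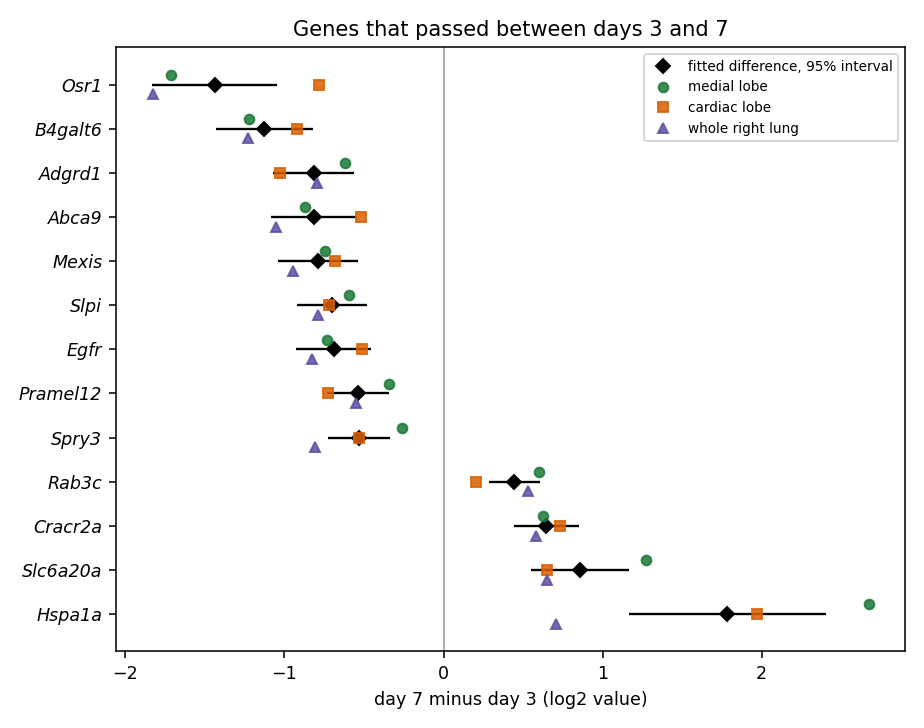
Differences between day 7 and day 3 in log2 values (horizontal axis) of the 13 genes that passed, 1 gene per line. Black diamonds with bars are the fitted difference and its 95% interval, and coloured points are the steps of the medial lobe, cardiac lobe and whole right lung; all points of a gene lie on the same side of 0, and Osr1 and Hspa1a show the widest spread between regions.

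**Figure D2:**
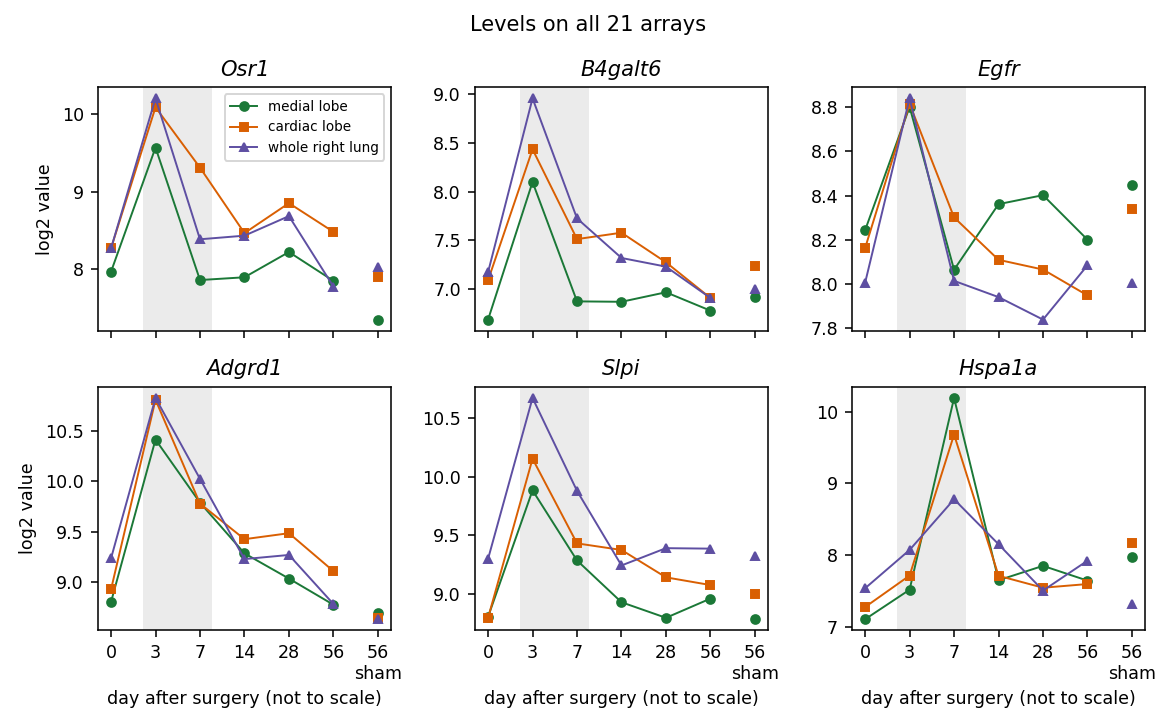
Log2 values (vertical axis) of Osr1, B4galt6, Egfr, Adgrd1, Slpi and Hspa1a on all 21 arrays against the day after surgery (horizontal axis, not to scale), with 1 line per region, sham arrays set apart at the right and days 3 to 7 shaded. The first 5 genes are at their peak mean at day 3, and Hspa1a at day 7, where the medial lobe reads 10.19 and the whole right lung 8.78.

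Hspa1a, the stress-inducible HSP70 chaperone that refolds damaged proteins, showed the largest rise among the genes that passed. It read 7.51, 7.71 and 8.07 at day 3 and 10.19, 9.68 and 8.78 at day 7 in the medial lobe, cardiac lobe and whole right lung. The order of the regions was reversed between the days, and the step was 2.68, 1.97 and 0.71. Hspa1a rose by 1.78 ± 0.29, or 3.44-fold (adjusted p = 0.036), and then fell by 1.71 ± 0.29 from day 7 to day 14 (adjusted p = 0.0163). It passed under 12 of 20 alternatives. The call was lost without the day 7 cardiac lobe array (1.71, adjusted p = 0.0509), the day 7 medial lobe array (1.43, adjusted p = 0.117), the day 3 cardiac lobe array (1.75, adjusted p = 0.111) or the day 3 whole right lung array (1.99, adjusted p = 0.132). The gene has a near-identical copy, Hspa1b, so which copy the probes read is uncertain.

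The other heat shock chaperones had smaller differences. Of 20 measured, 1 passed, and 7 had an unadjusted p under 0.05 with a positive difference, against 3.96% of all genes. The median of the 20 was 0.13, and the median of all genes was 0.00. Hsph1, a nucleotide exchange factor for HSP70, read 8.15, 8.22 and 8.42 at day 3 and 8.95, 9.03 and 8.89 at day 7. The days did not overlap, but the difference of 0.69 ± 0.13 did not pass (adjusted p = 0.0618). Dnajb1, a co-chaperone that stimulates its ATPase, had steps of 1.37, 0.45 and 0.38 and a difference of 0.73 ± 0.19 (adjusted p = 0.17). Fkbp4, an immunophilin of the HSP90 complex, lay at 0.26 ± 0.08 (adjusted p = 0.262). By region, all 20 genes were higher at day 7 in the medial lobe (median step 0.25), 10 in the cardiac lobe (0.00) and 14 in the whole right lung (0.11). With weights fitted to each array, 5 of the 20 passed, all higher, where 122 of all 19938 genes passed higher and 352 lower. Leaving out 1 array at a time gave medians from 0.07, without the day 7 medial lobe array, to 0.20, without the day 7 whole right lung array.

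The promoters of Hspa1a and Hsph1 are shown because these genes had the smallest p of the list and heat shock factor binds a known motif there. Each sequence holds the 250 bases before the annotated start, 5′ to 3′ on the gene's strand, from RefSeq (GRCm38.p6), with the matches to the motif in capitals. Hspa1a lies at chr17:34972157-34972406 and Hsph1 at chr5:149636316-149636565, both on the minus strand.
Hspa1a: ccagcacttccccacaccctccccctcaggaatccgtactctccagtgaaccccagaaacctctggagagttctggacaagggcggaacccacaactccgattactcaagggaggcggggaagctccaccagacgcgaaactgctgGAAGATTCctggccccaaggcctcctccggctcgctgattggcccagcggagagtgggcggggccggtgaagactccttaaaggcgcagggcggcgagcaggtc
Hsph1: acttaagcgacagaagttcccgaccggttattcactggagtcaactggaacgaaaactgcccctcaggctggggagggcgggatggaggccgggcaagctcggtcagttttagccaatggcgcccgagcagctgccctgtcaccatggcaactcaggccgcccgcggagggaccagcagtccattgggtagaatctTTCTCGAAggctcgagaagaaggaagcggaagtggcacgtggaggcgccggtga

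The motif was searched as GAANNTTC or TTCNNGAA, each of which reads the same on both strands, and matches of the 2 forms can overlap. The match in Hspa1a lay 104 to 97 bases before the start, and that in Hsph1 54 to 47 bases before it. In the full RefSeq windows, which also hold the first bases past the start, 11 of 17 heat shock genes with an entry held a match (64.7%), against 15.4% of 15614 measured genes with an entry. Dnajb1, with a difference of 0.73, had no match in either of its windows, and Chordc1, a cochaperone of HSP90, had 5 and a difference of 0.09. Counted in the full windows too, Hspa1a had 1 match and Hsph1 had 3.

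Slc6a20a, a transporter of proline and related amino acids, read 6.58, 6.85 and 6.08 at day 3 and 7.85, 7.50 and 6.72 at day 7. The whole right lung was lowest on both days and its day 7 array lay inside the range of day 3, yet every region stepped upward, by 1.27, 0.65 and 0.65. Slc6a20a rose by 0.86 ± 0.15, or 1.81-fold (adjusted p = 0.0444), after a change of -0.62 from day 0 to day 3 (adjusted p = 0.0164). Cracr2a, a calcium sensor that regulates store-operated calcium channels, had the most even steps of the 13, at 0.63, 0.73 and 0.58, and its days did not overlap (6.74 to 7.05 at day 3 and 7.32 to 7.78 at day 7). It rose by 0.65 ± 0.10 (adjusted p = 0.0197). Rab3c, a small GTPase of regulated exocytosis, rose by 0.45 ± 0.08 (adjusted p = 0.0444) at a low level, 4.87 to 5.46 at day 3 and 5.41 to 5.72 at day 7, with overlap between the days. It rose by another 0.43 ± 0.08 to day 14 (adjusted p = 0.0185).

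The neighbouring comparisons were fitted in the same model. The same fit called 6.7% of genes at day 3 against day 0, 8.69% at day 7 against day 0 and 0.727% at day 14 against day 7. Of the 13 genes, 10 passed at day 3 against day 0, 4 at day 7 against day 0 and 4 at day 14 against day 7. These comparisons share the day 3 or day 7 arrays, so the counts carry no independent evidence about the 13.

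Larger differences than these did not pass. A fitted difference over 1 in size was found for 59 genes, 43 lower and 16 higher at day 7, and 56 of them did not pass. Their median standard error was 0.394, against 0.111 over all genes. Clec4e, a C-type lectin receptor of macrophages and neutrophils, read 8.17, 7.71 and 10.56 at day 3 and 6.35, 6.46 and 6.71 at day 7. All day 7 arrays lay below all day 3 arrays, but the whole right lung stood far above both lobes at day 3, and the steps of -1.82, -1.25 and -3.85 were uneven. Its difference was -2.31 ± 0.59 (95% interval -3.55 to -1.06, adjusted p = 0.173). Clec4d, its partner receptor, had steps of -2.28, -0.06 and -3.02 (difference -1.79 ± 0.50, adjusted p = 0.212). Il1f9, an interleukin 1 family cytokine, had steps of -1.50, -1.11 and -2.76 (-1.79 ± 0.43, adjusted p = 0.143). C3ar1, the receptor for complement fragment C3a, had steps of -2.11, -0.71 and -2.27 (-1.70 ± 0.35, adjusted p = 0.0798). Itgam, the CD11b integrin chain of myeloid cells, had steps of -2.09, -0.01 and -2.48 (-1.53 ± 0.43, adjusted p = 0.212). Serpinb10, a serpin of haematopoietic cells, and Ifitm6, of a family of interferon-induced membrane proteins, stood at -1.61 ± 0.32 and -1.47 ± 0.39 (adjusted p = 0.0618 and 0.198). In Clec4e, Clec4d, Il1f9, C3ar1 and Itgam the cardiac lobe had the smallest step. In Serpinb10 and Ifitm6 the medial lobe had the smallest step, at -0.87 and -0.92.

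Genes higher at day 7 that did not pass were taken, like the lower ones above, from the largest differences with an unadjusted p under 0.05 and the same sign in all regions. Rnase2a, an eosinophil-associated ribonuclease also made by macrophages, read 4.78, 7.28 and 7.36 at day 3 and 5.35, 11.86 and 10.90 at day 7. The medial lobe stayed low on both days, and the steps were 0.57, 4.58 and 3.54 (difference 2.90 ± 1.19, adjusted p = 0.432). Its relative Ear6 had steps of 0.28, 2.51 and 0.77 (1.19 ± 0.35, adjusted p = 0.24), and members of this family are alike in sequence, so their values are uncertain as to the copy. Ctsk, a collagen-degrading cathepsin, read 8.57, 9.44 and 8.50 at day 3 and 9.47, 10.65 and 9.77 at day 7, with even steps of 0.90, 1.21 and 1.26 (1.12 ± 0.30, adjusted p = 0.198). Fer1l6, a ferlin family membrane protein, had steps of 0.86, 1.40 and 1.13 (1.13 ± 0.22, adjusted p = 0.0618). Chil4 had uneven steps of 1.27, 2.76 and 0.72, with overlap between the days (1.58 ± 0.67, adjusted p = 0.449). Fbp1, an enzyme of gluconeogenesis, stepped by 0.19 in the medial lobe, 2.002 in the cardiac lobe and 1.78 in the whole right lung (1.32 ± 0.30, adjusted p = 0.128). Cst9, of the cystatin family, showed the same split at 0.20, 1.60 and 1.78 (1.19 ± 0.51, adjusted p = 0.446). At day 3 Fbp1 read 4.63, 4.73 and 4.66 and Cst9 4.95, 5.22 and 4.58, near the dim end of the values. Genes past 1 in all 3 regions numbered 5 lower at day 7, Clec4e, Il1f9, Ccr2, S100a8 and Tlr13, and 3 higher, Tff2, Muc5ac and Clca1. These 8 were singled out after their values were seen, and none passed.

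**Figure D3:**
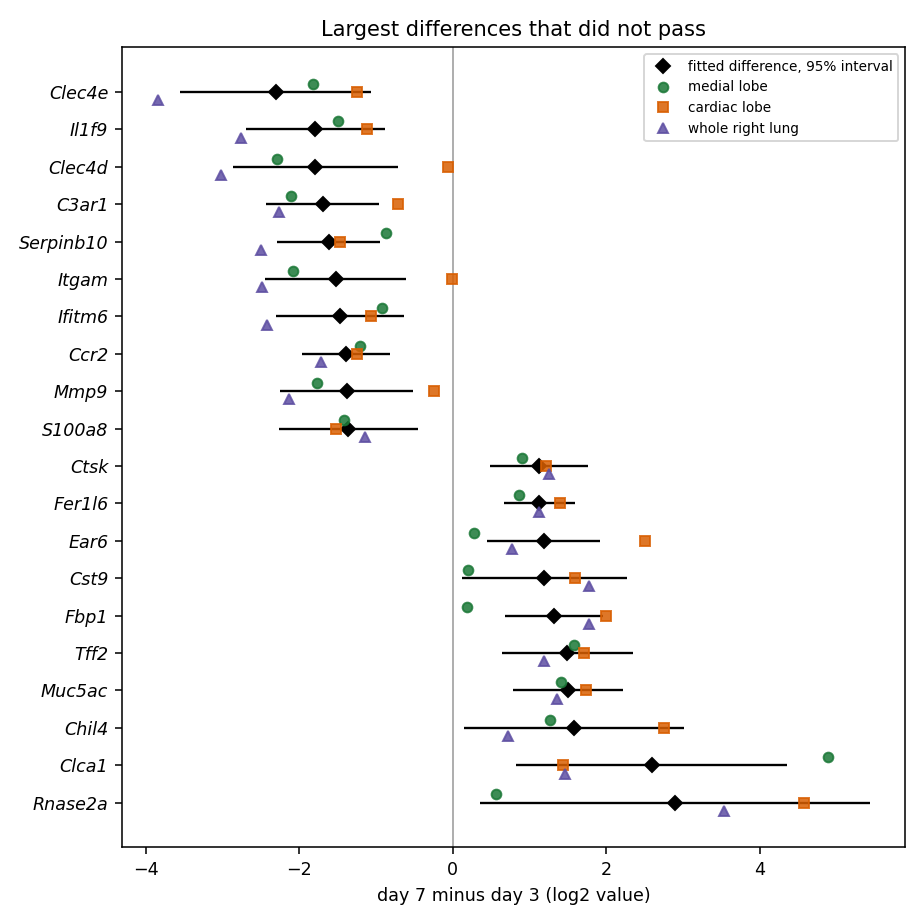
Differences between day 7 and day 3 in log2 values (horizontal axis) of the 10 largest lower and 10 largest higher genes that did not pass but had an unadjusted p under 0.05 and the same sign in all regions. Black diamonds with bars are the fitted difference and its 95% interval and coloured points the steps of the 3 regions; Clca1 reaches 4.89 in the medial lobe and Rnase2a 4.58 in the cardiac lobe, and Ctsk, Fer1l6, Muc5ac and Tff2 have steps that lie close together.

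Monocyte and interstitial macrophage markers lay lower at day 7 in 15 of 16 members, with 11 at an unadjusted p under 0.05, where 6.44% of all genes were lower at that p. None passed, and their median difference was -0.62. Ccr2, the chemokine receptor by which monocytes leave the blood, read 8.51, 9.36 and 9.45 at day 3 and 7.30, 8.11 and 7.73 at day 7. Each day 7 array lay below each day 3 array, with steps of -1.21, -1.24 and -1.71 (difference -1.39 ± 0.27, 95% interval -1.96 to -0.82, adjusted p = 0.0618). F13a1, the coagulation factor XIII chain of monocytes, stood at -0.91 ± 0.19 (adjusted p = 0.093), C1qb, a chain of complement C1q, at -0.89 ± 0.22 (adjusted p = 0.16) and Apoe, a lipid carrier of macrophages, at -0.44 ± 0.12 (adjusted p = 0.199). The mean level of the 16 was 8.98, 9.09 and 9.75 at day 3 and 8.18, 9.15 and 8.48 at day 7. The cardiac lobe alone showed no decrease, with a median step of 0.08 against -0.66 in the medial lobe and -1.26 in the whole right lung. Without the day 7 cardiac lobe array the median was -0.84 and 4 members passed, all lower, without the day 3 medial lobe array 2 passed, and with array weights 10 passed, all lower. In the same order, these fits called 41, 90 and 352 of all 19938 genes lower. Without the day 3 whole right lung array the median was -0.33, and with only the lobe arrays it was -0.28, and none passed in either. In these bulk samples fewer cells of a type and less RNA per cell cannot be told apart.

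Neutrophil genes gave 12 of 14 members lower, a median of -0.48 and no member that passed. Of the lower members 5 had an unadjusted p under 0.05, where 6.44% of all genes were lower at that p. Csf3r, the receptor for granulocyte colony-stimulating factor, read 7.88, 7.96 and 8.92 at day 3 and 6.83, 7.12 and 7.23 at day 7 (difference -1.19 ± 0.35, adjusted p = 0.24). S100a8, a subunit of calprotectin, read 9.9998, 9.52 and 10.39 at day 3 and 8.58, 8.01 and 9.25 at day 7 (-1.36 ± 0.43, adjusted p = 0.28). Both genes showed no overlap between the days. Cxcr2, the receptor for neutrophil chemokines, stood at -1.22 ± 0.41 (adjusted p = 0.316) and Mmp9, gelatinase B, at -1.38 ± 0.41 (adjusted p = 0.244). High levels were not confined to day 3. S100a8 had means of 9.97 at day 3, 10.44 at day 14 and 10.31 at day 56 after sham surgery. The mean of Cxcr2 was 8.20 both at day 3 and after sham surgery, while Csf3r and Mmp9 had their highest mean at day 3. With array weights 6 of the 14 passed, all lower, and with only the lobe arrays 1 passed. These fits called 352 and 5 of all 19938 genes lower. The median was -0.25 without the day 3 cardiac lobe array and -0.67 without the day 3 medial lobe array, the ends of the range, and none passed without any single array.

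Acute inflammation genes gave 18 of 24 lower and a median of -0.37, with no member that passed. An unadjusted p under 0.05 was found for 8 of the lower ones, against 6.44% of all genes. Cxcl5, a chemokine for neutrophils made by lung epithelium, read 5.68, 5.60 and 6.47 at day 3 and 4.64, 5.43 and 4.68 at day 7 (difference -1.0002 ± 0.20, adjusted p = 0.0618). Serpinb2, an inhibitor of plasminogen activators, showed a wide split between regions, at 8.80, 8.28 and 10.62 at day 3 and 5.65, 8.89 and 6.57 at day 7. It stepped by -3.16 in the medial lobe and -4.05 in the whole right lung but by 0.61 in the cardiac lobe (-2.20 ± 0.60, adjusted p = 0.201). The list's median step was -0.21 in the medial lobe, 0.13 in the cardiac lobe and -1.21 in the whole right lung. The direction rested on the day 3 whole right lung array, without which the median was 0.02, and it was 0.05 with only the lobe arrays. Without the day 7 cardiac lobe array the median was -0.64 and 2 members passed, both lower, without the day 3 medial lobe array it was -0.74 with none, and with array weights the median was -0.68 and 5 members passed. Of all 19938 genes, these fits called 41, 90 and 352 lower in the same order.

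**Figure D4:**
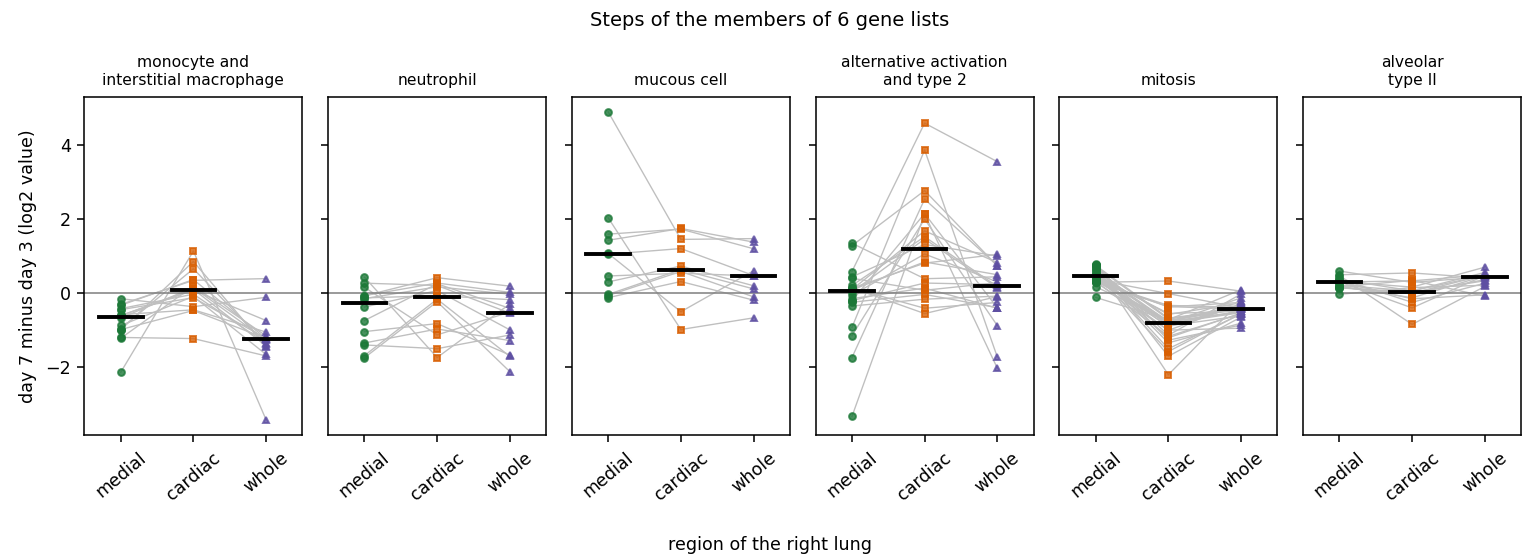
Steps from day 3 to day 7 in log2 values (vertical axis) in the medial lobe, cardiac lobe and whole right lung (horizontal axis) for every measured member of 6 lists; points are genes, grey lines join the values of 1 gene, and black bars are medians. The monocyte list has medians of -0.66, 0.08 and -1.26, the mucous list has a median above 0 in each region, and the mitosis list turns from 0.44 in the medial lobe to -0.82 in the cardiac lobe.

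Mucous cell genes were higher at day 7 in 10 of 11 members, with a median of 0.40 and no member that passed. An unadjusted p under 0.05 was found for 5, where 3.96% of all genes were higher at that p. Muc5ac, the gel-forming mucin of goblet cells, read 6.06, 7.36 and 7.15 at day 3 and 7.47, 9.09 and 8.51 at day 7. The steps of 1.42, 1.73 and 1.37 were nearly equal and the days did not overlap (difference 1.505 ± 0.34, 95% interval 0.79 to 2.22, adjusted p = 0.126). Clca1, a secreted regulator of mucus, read 6.50, 10.29 and 10.30 at day 3 and 11.39, 11.73 and 11.76 at day 7. The low value was the day 3 medial lobe array alone, which gave a step of 4.89 against 1.44 and 1.46 elsewhere (2.60 ± 0.83, adjusted p = 0.291). Tff2, a trefoil peptide secreted with mucin, read 9.09, 9.53 and 9.84 at day 3 and 10.67, 11.24 and 11.02 at day 7 (1.49 ± 0.40, adjusted p = 0.198). Foxa3, a transcription factor of goblet cells, stepped by 0.45, 0.52 and 0.45 (0.47 ± 0.15, adjusted p = 0.288). It started near the dim end of the values, at 4.60, 4.84 and 4.69 at day 3. The median step of the list was 1.04 in the medial lobe, 0.62 in the cardiac lobe and 0.45 in the whole right lung, and the fitted median was 0.30 without the day 7 cardiac lobe array and 0.76 without the day 3 cardiac lobe array. With array weights it was 0.15 and 1 member passed, higher. Airway markers varied between regions in another order: 18 ciliated cell genes had median steps of 0.33, -0.51 and -0.06, and 10 club cell genes of 0.10, -0.68 and 0.07, and their part in the mucous values was not tested.

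Genes of alternatively activated macrophages and type 2 immunity had a median of 0.44 over 22 members, with 15 higher and none that passed. Of the higher members 8 had an unadjusted p under 0.05, where 3.96% of all genes were higher at that p. The median step was largest in the cardiac lobe, at 1.17, against 0.04 in the medial lobe and 0.19 in the whole right lung. Without the day 7 cardiac lobe array the median was 0.02, without the day 7 medial lobe array it was 0.80, and with array weights it was -0.005 and 1 member passed, lower. Chil3, a chitinase-like protein of alternatively activated macrophages, stepped by 0.12, 0.80 and 1.03 (difference 0.65 ± 0.20, adjusted p = 0.28). Ccl17 and Ccl22, ligands of the chemokine receptor Ccr4, stood at 0.91 ± 0.29 and 0.85 ± 0.28 (adjusted p = 0.281 and 0.299). Il13, the cytokine that drives mucous cell differentiation, read 5.40, 5.37 and 5.61 at day 3 and 5.59, 6.88 and 5.78 at day 7, so that the cardiac lobe alone departed from the rest (0.62 ± 0.21, adjusted p = 0.31). Arg1, arginase of alternatively activated macrophages and chosen here after its values were seen, went opposite ways, with steps of -3.35, 2.12 and -2.04. Among 13 eosinophil, mast cell and basophil genes none passed, 2 were higher and 1 lower at an unadjusted p under 0.05, and the median was 0.04 (-0.002 without the day 7 cardiac lobe array), with Prg2, eosinophil major basic protein, at 0.73 ± 0.27 (adjusted p = 0.38), and Ccr3, the eotaxin receptor, at -0.66 ± 0.29 (adjusted p = 0.458). Mcpt4 and Tpsb2, mast cell proteases, stood at 0.27 ± 0.11 and 0.26 ± 0.16 (adjusted p = 0.409 and 0.557). At day 3 Prg2 read 4.73, 4.52 and 5.06 and Mcpt4 4.64, 4.70 and 5.18, near the dim end of the values. The median of the eosinophil, mast cell and basophil list was 0.09 without the day 7 medial lobe array. Of its members 23.1% lay at an unadjusted p under 0.05 in either direction, against 10.4% of all genes. Of 13 alveolar macrophage genes none passed, 2 were higher at an unadjusted p under 0.05, and the median was 0.12, with the keratin Krt79 at 0.33 ± 0.12 (adjusted p = 0.391), the fatty acid binding protein Fabp1 at -0.54 ± 0.26 (adjusted p = 0.491) and Mrc1, the mannose receptor, at -0.21 ± 0.12 (adjusted p = 0.521). The alveolar macrophage median was 0.03 without the day 7 whole right lung array and 0.21 without the day 7 medial lobe array. At an unadjusted p under 0.05 in either direction lay 15.4% of this list, against 10.4% of all genes.

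B and plasma cell genes were lower in 12 of 15 members, with a median of -0.32 and none that passed. Of the lower members 5 had an unadjusted p under 0.05, where 6.44% of all genes were lower at that p. Ms4a1, CD20 of B cells, read 7.80, 8.18 and 8.20 at day 3 and 7.37, 7.15 and 7.22 at day 7 (difference -0.81 ± 0.23, adjusted p = 0.212), and Fcmr, the IgM receptor, read 8.02, 8.32 and 8.29 and then 7.56, 7.01 and 7.60 (-0.82 ± 0.21, adjusted p = 0.176). The days did not overlap in either gene, nor in the antigen receptor chains Cd79a and Cd79b, at -0.47 ± 0.20 and -0.48 ± 0.16 (adjusted p = 0.457 and 0.324). Over the whole list, differences ran from -0.82 to 0.79, and 3 members were higher. In the cardiac lobe 5 of the 15 stepped upward, and the mean level was 7.49 at day 3 and 7.47 at day 7. T and NK cell genes were lower in 17 of 19, with a median of -0.21, 2 at an unadjusted p under 0.05, none that passed and median steps of -0.22, -0.43 and 0.05. These 2 are 10.5% of the list, against 10.4% of all genes at that p in either direction, and the median was -0.12 without the day 7 cardiac lobe array. The CD3 chains Cd3g and Cd3e stood at -0.46 ± 0.17 and -0.32 ± 0.14 (adjusted p = 0.391 and 0.458), Ncr1, a receptor of NK cells, at -0.60 ± 0.29 (adjusted p = 0.488) and Cd4 at -0.21 ± 0.12 (adjusted p = 0.528). Interferon response genes were lower in 19 of 24, with a median of -0.22 and none that passed. An unadjusted p under 0.05 was found for 7 of the lower ones, against 6.44% of all genes. Irf9 and Stat2, which form the transcription factor downstream of the interferon receptor, stood at -0.32 ± 0.09 and -0.31 ± 0.12 (adjusted p = 0.21 and 0.417), and the nucleic acid sensors Zbp1 and Dhx58 at -0.54 ± 0.17 and -0.47 ± 0.17 (adjusted p = 0.27 and 0.362). Without the day 3 whole right lung array the interferon median was -0.08 and the B and plasma cell median -0.24. The B and plasma cell median was -0.43 without the day 3 medial lobe array.

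Cell division genes split by region. Of 31 mitosis genes 30 stepped upward in the medial lobe (median 0.44), while 1 did so in the cardiac lobe (median -0.82) and 2 in the whole right lung (median -0.44). The mean level of the list was 7.06, 8.35 and 7.67 at day 3 and 7.51, 7.45 and 7.24 at day 7. The cardiac lobe thus stood highest at day 3, the medial lobe lowest, and the regions lay within a narrower range at day 7. The fitted median was -0.28, no member passed, and 3 had an unadjusted p under 0.05. These 3 are 9.7% of the list, against 10.4% of all genes at that p in either direction. Plk1, a kinase of mitotic entry and spindle assembly, read 8.34, 9.63 and 9.18 at day 3 and 8.62, 8.61 and 8.22 at day 7 (difference -0.56 ± 0.20, adjusted p = 0.362). Cenpe, the kinetochore motor, stood at -0.48 ± 0.21 (adjusted p = 0.458), Hmmr, a spindle protein, at -0.55 ± 0.25 (adjusted p = 0.472) and Ccnb2, cyclin B2, at -0.52 ± 0.26 (adjusted p = 0.5). Without the day 3 medial lobe array the median was -0.62 and 10 of the 31 passed, all lower, while without the day 3 cardiac lobe array the median was 0.01 and none passed. Of all 19938 genes, these fits called 90 and 3 lower. The interaction of region and day cannot be tested with 1 array for each combination. The 35 DNA replication genes followed the same pattern at smaller size, with median steps of 0.27, -0.43 and -0.22, a fitted median of -0.22, none that passed, and 1 higher and 3 lower at an unadjusted p under 0.05. Mcm4, of the replicative helicase, stood at -0.34 ± 0.14 (adjusted p = 0.432), and Pola1 and Prim2, of the primase complex, at -0.29 ± 0.13 and -0.25 ± 0.12 (adjusted p = 0.472 and 0.474). Orc1, of the origin recognition complex, lay at 0.27 ± 0.12 (adjusted p = 0.461). It read 4.45, 4.93 and 4.59 at day 3, near the dim end of the values. The replication median was -0.37 with 1 member passing, lower, without the day 3 medial lobe array, and -0.02 without the day 3 cardiac lobe array. At an unadjusted p under 0.05 in either direction lay 11.4% of the replication list, against 10.4% of all genes.

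Matrix genes lay on both sides of 0. The 28 fibrillar collagen and elastic fibre genes had 14 higher and 14 lower members and a median of 0.00. None passed, and 3 were higher and 5 lower at an unadjusted p under 0.05. In either direction this is 28.6% of the list, against 10.4% of all genes. Ltbp2, a latent TGF-beta binding protein of elastic fibres, read 6.94, 7.25 and 6.83 at day 3 and 7.36, 8.44 and 7.57 at day 7, without overlap (difference 0.79 ± 0.15, adjusted p = 0.0618). Vcan, versican, and Fn1, fibronectin, constituents of provisional matrix, lay lower at -0.93 ± 0.28 and -0.69 ± 0.22 (adjusted p = 0.264 and 0.28), and Dcn, decorin, at -0.35 ± 0.10 (adjusted p = 0.21). The collagens Col1a1 and Col3a1 stood at 0.00 and 0.01, and elastin, Eln, at 0.76 ± 0.35 with steps of 0.05, 1.29 and 0.95; these 3 were chosen after their values were seen. With array weights 6 of the 28 passed, 5 of them lower, where 474 of all 19938 genes passed. Without the day 7 cardiac lobe array the median was -0.22 and 2 passed, both lower, and without the day 7 medial lobe array it was 0.10 and 1 passed, higher. Of 19 matricellular and matrix remodelling genes none passed, 3 were higher and 2 lower at an unadjusted p under 0.05, and the median was 0.01. In either direction 26.3% lay at that p, against 10.4% of all genes. Ccn2, connective tissue growth factor, read 10.65, 10.56 and 10.28 at day 3 and 10.95, 11.27 and 11.07 at day 7 (0.60 ± 0.18, adjusted p = 0.248), and Mmp2, gelatinase A, stood at 0.41 ± 0.16 (adjusted p = 0.402). Timp1, an inhibitor of metalloproteinases, and Adam12, a membrane metalloproteinase, stood at -0.53 ± 0.23 and -0.42 ± 0.18 (adjusted p = 0.453 and 0.445), and Timp1 was still 2.99 above day 0 at day 7. In this list 1 member passed without the day 7 cardiac lobe array and 4 with array weights, all lower. These fits called 41 and 352 of all 19938 genes lower.

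Mesothelial genes, which mark the pleural surface, were lower in 12 of 13 members, with a median of -0.28 and none that passed. Of the lower members 6 had an unadjusted p under 0.05, where 6.44% of all genes were lower at that p. Bnc1, a transcription factor of mesothelium, read 8.90, 9.16 and 9.22 at day 3 and 8.29, 8.21 and 8.50 at day 7 (difference -0.76 ± 0.18, adjusted p = 0.141), with no overlap. Lrrn4, a membrane protein of these cells, read 11.06, 11.02 and 11.10 and then 10.75, 10.01 and 10.92 (-0.50 ± 0.14, adjusted p = 0.212). Aldh1a2, which makes retinoic acid, and Upk1b, a uroplakin, stood at -0.36 ± 0.11 and -0.28 ± 0.10 (adjusted p = 0.257 and 0.345). The median step was -0.32 in the medial lobe, -0.52 in the cardiac lobe and 0.04 in the whole right lung. The mesothelial median was -0.17 without the day 3 cardiac lobe array and -0.39 without the day 3 whole right lung array, and with array weights 3 members passed, all lower. Among 22 mesenchymal transcription factors Osr1 was the only one that passed, and the median was -0.10. Prrx1, of limb and lung mesenchyme, stood at -0.51 ± 0.17 (adjusted p = 0.323), Zeb2, a repressor of epithelial genes, at -0.40 ± 0.17 (adjusted p = 0.441) and Meis1, a homeobox partner of HOX proteins, at -0.36 ± 0.15 (adjusted p = 0.421). The median of these factors was -0.05 without the day 7 cardiac lobe array, where 2 passed, and -0.20 without the day 7 whole right lung array.

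Alveolar type II genes, which serve surfactant production, were higher in 15 of 16 members, with a median of 0.16 and none that passed. Of the higher members 6 had an unadjusted p under 0.05, where 3.96% of all genes were higher at that p. Sftpd, surfactant protein D, read 11.36, 11.55 and 10.93 at day 3 and 11.84, 12.08 and 11.32 at day 7, an even step of 0.48, 0.53 and 0.39 with overlap between the days (difference 0.47 ± 0.12, adjusted p = 0.169). Lpcat1 and Scd1, enzymes of surfactant lipid synthesis, stood at 0.38 ± 0.15 and 0.32 ± 0.12 (both adjusted p = 0.399), and S100g, a calcium-binding protein, at 0.43 ± 0.18 (adjusted p = 0.441). The median step of the list was 0.29, 0.03 and 0.41, and without the day 7 cardiac lobe array the fitted median was 0.31. It was 0.12 without the day 3 whole right lung array and 0.07 with only the lobe arrays, and with array weights 2 members passed, both higher. Alveolar type I genes had a median of -0.01 over 16 members, none of which passed and 2 of which were higher at an unadjusted p under 0.05: Igfbp2, an IGF binding protein, and Spock2, a matrix proteoglycan, at 0.43 ± 0.19 and 0.35 ± 0.16 (adjusted p = 0.466 and 0.472). Among 20 endothelial genes none passed, 2 were higher and 1 lower at an unadjusted p under 0.05, and the median was 0.06, with Ednrb, the endothelin B receptor, at -0.81 ± 0.22 (adjusted p = 0.203) and Tie1, a receptor kinase, and Vwf, von Willebrand factor, at 0.56 ± 0.19 and 0.50 ± 0.23 (adjusted p = 0.31 and 0.472). Ednrb read 9.84, 9.52 and 9.85 at day 3 and 9.10, 8.88 and 8.79 at day 7, with no overlap. The type I and endothelial medians changed sign between left-out arrays, at 0.14 and 0.17 without the day 7 cardiac lobe array and -0.08 and -0.04 without the day 3 whole right lung array. At an unadjusted p under 0.05 in either direction lay 12.5% of type I and 15% of endothelial genes, against 10.4% of all genes.

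Transcription factors of lung epithelial development were mixed, with 14 of 21 higher, a median of 0.14, none that passed, and 5 higher and 1 lower at an unadjusted p under 0.05. In either direction 28.6% of the list lay at that p, against 10.4% of all genes. Gata6, which governs differentiation of lung epithelium and endoderm, read 10.52, 10.59 and 10.43 at day 3 and 10.20, 9.73 and 9.93 at day 7. It had no overlap between the days and narrowly missed the threshold (difference -0.56 ± 0.10, 95% interval -0.78 to -0.34, adjusted p = 0.0585). Irx1, an Iroquois homeobox factor of lung epithelium, stepped by 0.66, 0.94 and 0.82 (0.80 ± 0.18, adjusted p = 0.128), and its relative Irx2 by 0.50, 0.44 and 0.35 (0.43 ± 0.13, adjusted p = 0.258). Nkx2-1, the factor that defines lung epithelium, stood at 0.32 ± 0.09 (adjusted p = 0.202). The median was 0.07 and 1 member passed, lower, without the day 3 medial lobe array, and 4 passed with array weights, 3 of them higher. In the FGF pathway, which guides branching and alveolar growth, 10 of 14 genes were higher, with a median of 0.13 and none that passed. Of the higher ones 5 had an unadjusted p under 0.05, where 3.96% of all genes were higher at that p. The receptor Fgfr3 stood at 0.27 ± 0.09 (adjusted p = 0.329), the feedback inhibitors Spry1 and Spry2 at 0.30 ± 0.13 and 0.26 ± 0.10 (adjusted p = 0.453 and 0.427) and the phosphatase Dusp6 at 0.30 ± 0.12 (adjusted p = 0.436). Spry3, which fell near the dim end of the values, is not in this list. The FGF median was 0.22 without the day 7 cardiac lobe array. Imprinted growth genes were lower in 12 of 15 with a median of -0.16 and none that passed (1 higher and 3 lower at an unadjusted p under 0.05). In either direction 26.7% of the list lay at that p, against 10.4% of all genes. Ndn, a growth suppressor of the melanoma antigen family, stood at -0.53 ± 0.17 (adjusted p = 0.28), Grb10, an adaptor that dampens insulin signalling, at -0.36 ± 0.12 (adjusted p = 0.323), Gatm, of creatine synthesis, at -0.83 ± 0.34 (adjusted p = 0.43) and Cdkn1c, a cell cycle inhibitor, at 0.28 ± 0.12 (adjusted p = 0.458). Their median was -0.03 without the day 7 cardiac lobe array and -0.26 without the day 7 whole right lung array.

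Circadian clock genes had a median of 0.00 over 16 members, of which none passed and 1 was higher and 3 were lower at an unadjusted p under 0.05. In either direction 25% of the list lay at that p, against 10.4% of all genes. The labels used here give no hour of collection. The activator Arntl stood at -0.36 ± 0.14 (adjusted p = 0.391), the repressors Nr1d1 and Bhlhe40 at -0.49 ± 0.15 and -0.40 ± 0.18 (adjusted p = 0.244 and 0.469), and the repressor Cry1 at 0.35 ± 0.11 (adjusted p = 0.299). Nr1d1 read 11.22, 11.06 and 10.96 at day 3 and 10.87, 10.10 and 10.79 at day 7, without overlap. The clock median was 0.17 without the day 7 cardiac lobe array and -0.15 without the day 7 whole right lung array. Of 48 lists written, 26 were described. Over these 26, medians ran from -0.62 in monocyte and interstitial macrophage genes to 0.44 in alternatively activated macrophage and type 2 genes. Outside the 26, the 59 small nucleolar and related RNAs had a median of 0.47. Their median steps were -0.10 in the medial lobe, 1.14 in the cardiac lobe and 0.22 in the whole right lung. A miss of the threshold sets a bound rather than a level of no change: the 95% interval of the difference lay within 1 of 0 for 19408 genes, 97.3% of those tested.

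**Figure D5:**
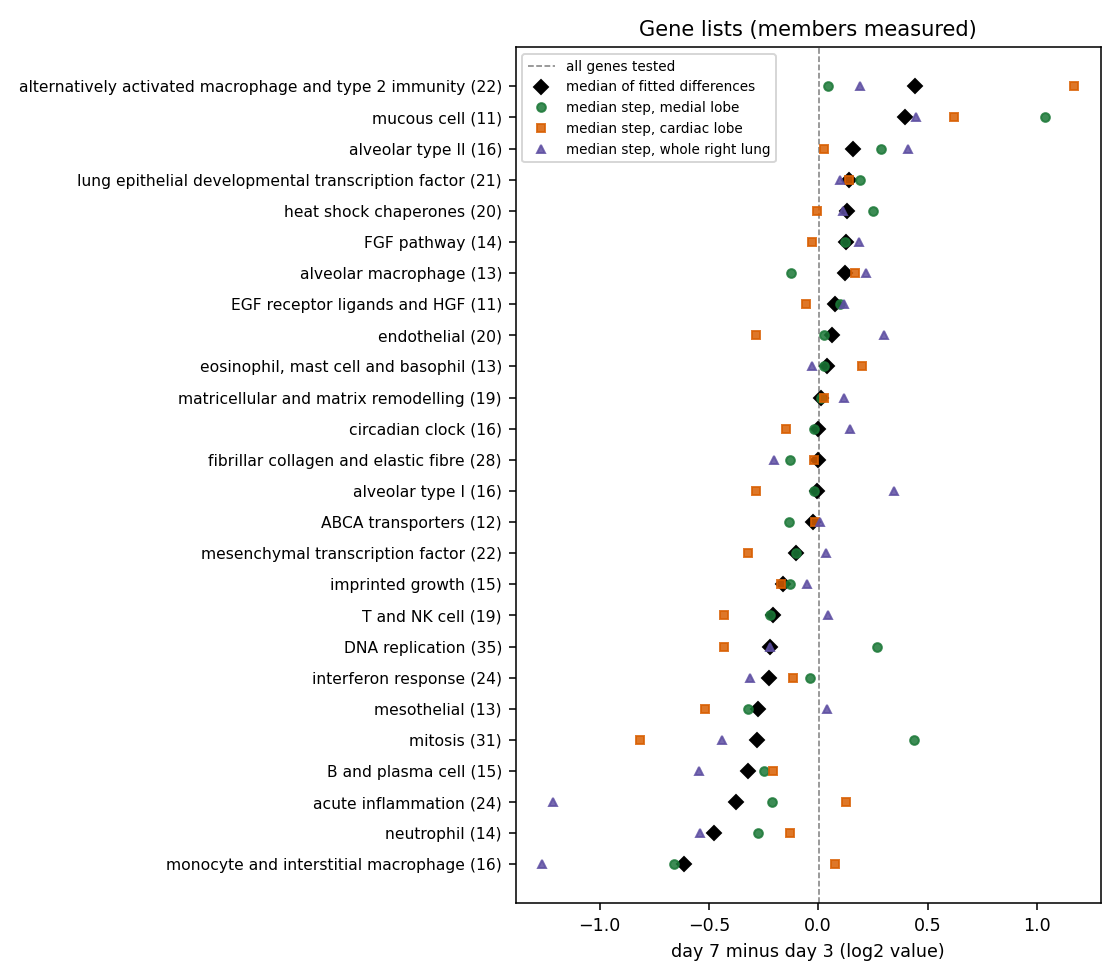
Median difference between day 7 and day 3 in log2 values (horizontal axis) for 26 gene lists, with the number of measured members in brackets. Black diamonds are medians of the fitted differences, coloured points are median steps of the 3 regions, and the dashed line is the median of all genes; the whole right lung lies far to the left in the monocyte and acute inflammation lists, and the cardiac lobe far to the right in the type 2 list.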

How the data were processed

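Per the submitters' processing notes, the authors made the values with RMA (version not given in the sources used here), and the deposited values are log2 expression levels of 35556 probe sets on 21 arrays. Protocols in the labels describe 3′ amplification, yet the probes are those of a whole-transcript array, and the chemistry is not settled. In the platform annotation 21789 probe sets had 1 symbol, giving 19938 genes; the probe set with the highest mean stood for each of 999 genes with several. Condition and region entered an additive model of all arrays in limma 3.58.1 (R 4.3.3), with empirical Bayes moderation, and Benjamini-Hochberg adjustment ran over all genes; every adjusted p of a gene is from limma. The script was tested on simulated data. Region pairs the days by label: medial lobe is replicate 1, cardiac lobe 2 and whole right lung 3. All arrays carry 1 hybridization date, so no batch was testable, and 3 arrays a day limit the precision. Members and lists (770 names, 40 unmatched) were chosen with earlier results of these data known. Named genes are those that passed, the 10 largest differences each way that did not pass (unadjusted p under 0.05, same sign in all regions, no predicted genes), and up to 4 members of each list by smallest p; others are marked as chosen later. RefSeq tables (GRCm38.p6) gave current names for 21698 probe sets, and promoters. Alternatives changed the region term, arrays, weights, scaling, dim genes, probe sets, moderation and a small RNA covariate.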

Additional observations from a re-analysis of the deposited data

Results flagged for a closer look

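Array summaries were compared among the 7 arrays of each region, where chance sets apart about 1 group in 20. The day 7 cardiac lobe array had an interquartile range of 3.341, a gap to its nearest neighbour of 0.591 of the range of the 7 (critical value 0.568). It also held the highest small RNA level of its region, 8.15, and the lowest fitted array weight of all 21, 0.12. The day 0 medial lobe array, which enters the comparison only through the shared spread and the region term, had a median of 7.018, with a gap of 0.585. The part of either array in the step from day 3 to day 7 beyond the left-out values was not tested.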

How the results depend on the processing

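Against 13 genes in the main analysis, 0 passed with no replicate block, that is without pairing by region (1182 at an unadjusted p under 0.05), and 0 with only the 6 arrays of days 3 and 7 (982), where 2 residual degrees of freedom remain. The count was 6 with only the lobe arrays, 3 with the whole right lung left out at days 3 and 7, and 7 when every probe set was tested. It was 65 without the day 7 cardiac lobe and day 56 whole right lung arrays together (11 of the 13 among them) and 474 with array weights (all 13 among them). Leaving out 1 array of either day in turn gave 0 to 102. Region as a random block, a small RNA covariate, centring, quantile normalization, a filter on dim genes, the mean of probe sets, and trended robust moderation gave 10 to 18. The 13 genes kept their direction in every alternative that tested them. They were called from these arrays and had the same sign in all regions. Their choice largely set this outcome, so it is no separate evidence. Of the genes named by rule, only Tpsb2 changed sign: it gave -0.037 without the day 7 cardiac lobe and day 56 whole right lung arrays, and -0.038 to 0.442 as each array was left out. The choice of these genes by small p or shared sign favoured a kept sign too. Each list median was set beside its value under each alternative. In 62 of these cases it moved by over the standard deviation of the 3 region medians, and in 737 it did not. Lists whose regions disagree have a wide spread, so their medians seldom counted as moved. The acute inflammation median went from -0.374 to 0.054 with only the lobe arrays, which is within that spread. The 737 cases therefore do not show that the medians were stable. The causes were not tested.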
